A study of Mus musculus with 28 samples.

Results

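The inflammation-linked G-protein-coupled receptor genes Fpr1, Fpr2, Ccrl2, Gpr84, Hcar2, Gpr35, Gpr31b, Gpr18, Gpr65 and Gpr132, were followed in microglia sorted from 28 single mouse retinas. They are 10 of the 40021 gene lines of the deposited expression table, taken by symbol, and were selected from their measured values in the 4 groups described here. Their levels and differences between groups are therefore given as a description without a test. All mice were male Cx3cr1CreER:R26-tdTomato heterozygotes (C57BL/6), in which the fractalkine receptor gene drives a tamoxifen-dependent Cre that switches on a red reporter. Tamoxifen was given as eye drops. Endotoxin-induced uveitis (EIU) was induced later by injection of lipopolysaccharide (LPS), a bacterial cell wall component that activates toll-like receptor 4, into the vitreous. The groups were 10 naïve retinas from uninjected littermates, 6 retinas taken 4 h after LPS, 5 taken after 18 h and 7 taken after 2 weeks. No vehicle-injected group was analysed here, so LPS and the injection itself cannot be told apart, and some recombination occurs in this line without tamoxifen. Retinas came from both eyes and from 2 experiments, which gave 6 and 4 naïve retinas, 3 and 3 of the 4 h group, 4 and 1 of the 18 h group and 4 and 3 of the last group. The labels do not say which retinas came from 1 animal, so that p-values measure the spread between retinas.

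G-protein-coupled receptors cross the membrane in a bundle of helices and pass the binding of an outside ligand to G proteins, which alter cyclic AMP, calcium and kinase signals within the cell. In microglia and other myeloid cells such receptors sense bacterial peptides, chemoattractants, lipids, metabolites and acid, and they steer migration and cytokine release. Fpr1 and Fpr2 bind formylated peptides, Ccrl2 presents chemerin without known signalling of its own, Gpr84 and Hcar2 respond to fatty acids and small metabolites, and Gpr65 senses protons.

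Levels are in RPKM, read numbers scaled to the length of the transcript and to the mapped reads of the library, so that levels of different genes can be compared. A single read corresponded to between 0.0172 and 0.132 RPKM for these 10 genes, over 7510000 to 19700000 alignments per retina. Values of 0 are written as listed at 0, since an exact 0 in a table of estimated values need not mean that a transcript was absent. In 24 retinas 8137 genes or more reached 1 RPKM, and in the other 4 between 6552 and 7088 did, namely naïve retinas 3 and 4, 18 h retina 4 and 2-week retina 1. All 12 microglial markers had a mean above 1 RPKM in every group. Their summed level ranged from 6756 to 14913 RPKM in the naïve group, from 2336 to 8749 in the 4 h group, from 4226 to 8610 in the 18 h group and from 8028 to 15723 in the 2-week group. Of these 12 markers, 4 were called lower than naïve at 4 h and 7 at 18 h, beside 4.39% and 1.85% of all genes tested. At 2 weeks 0 were called, beside 0.0076% of all genes. The part of these markers in the receptor values was not tested. Markers of 2 other retinal cell types were present in every group. The sums lay between 686 and 6002 RPKM for 8 rod genes and between 163 and 10194 RPKM for 8 Muller glia genes. Apoe led the second sum, with group means from 1020 (18 h) to 2970 RPKM (2 weeks) and a highest value of 10004. Of the others Glul had the highest group mean, 104 RPKM at 2 weeks. The cell source of the Apoe reads was not tested. As these are bulk samples, fewer cells of a type and less RNA per cell cannot be told apart.

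The 10 genes lie on 7 chromosomes of GRCm38, in GENCODE M21 coordinates. Fpr1 (chr17:17876471-17883940, minus strand) and Fpr2 (chr17:17887824-17893952, plus strand) are neighbours, and Gpr31b (chr17:13051014-13052296, minus) lies on the same chromosome. Gpr65 (chr12:98268635-98276644, plus) and Gpr132 (chr12:112850873-112868228, minus) share chromosome 12. The others are Gpr35 (chr1:92950865-92986391, plus), Hcar2 (chr5:123863570-123865499, minus), Ccrl2 (chr9:111054486-111057519, minus), Gpr18 (chr14:121911253-121915781, minus) and Gpr84 (chr15:103308235-103310612, minus). Libraries were not stranded. Gpr18 lies within Ubac2 on the opposite strand, whose median in RPKM was 7.74 (naïve), 7.71 (4 h), 9.24 (18 h) and 7.97 (2 weeks). Gpr65 and Gpr84 each overlap an antisense gene, and Fpr2 overlaps Fpr3, which reached at most 0.185 RPKM. Reads of overlapping genes cannot be assigned with certainty.

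Promoter windows of 300 bases, from 250 before to 50 after a transcription start, were found in RefSeq (GRCm38.p6) for 9 of the 10 genes, 12 windows in all. They were searched on both strands for TGANTCA, TGACGTCA, GAGGAAGT, the NF-kappa B consensus and the interferon-stimulated response element. The NF-kappa B consensus was matched in windows of 3 genes, Ccrl2, Gpr132 and Gpr31b, against 8.46% of all 32851 promoter windows. Gpr18 held the response element, found in 3.44% of all windows, and Gpr31b also held GAGGAAGT, the PU.1 consensus, found in 3.20%. TGANTCA (7.81% of windows) was matched in 1 window of Gpr35, and TGACGTCA (1.79%) in none of the 12. The 250 bases before the RefSeq start are printed for the 4 of these genes whose 4 h values all lay above their naïve values, 5′ to 3′ on the gene's strand, with the matches in capitals. For Ccrl2 the match is in 1 of its 3 windows, the one printed. The RefSeq starts used here differ from the GENCODE gene starts by 1 base for Ccrl2, 16 for Gpr31b and 107 for Gpr18, and that of Gpr132 lies 7312 bases inside the GENCODE gene, so that distances to a match depend on the annotation. A match describes letters, not a bound site.

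Ccrl2, chr9:111057519-111057768, minus strand, capitals mark the NF-kappa B consensus: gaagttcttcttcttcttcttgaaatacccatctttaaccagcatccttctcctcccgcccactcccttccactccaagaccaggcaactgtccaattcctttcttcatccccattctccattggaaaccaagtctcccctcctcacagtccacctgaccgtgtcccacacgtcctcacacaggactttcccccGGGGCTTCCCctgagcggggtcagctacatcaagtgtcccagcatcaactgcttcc

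Gpr132, chr12:112860917-112861166, minus strand, capitals mark the NF-kappa B consensus: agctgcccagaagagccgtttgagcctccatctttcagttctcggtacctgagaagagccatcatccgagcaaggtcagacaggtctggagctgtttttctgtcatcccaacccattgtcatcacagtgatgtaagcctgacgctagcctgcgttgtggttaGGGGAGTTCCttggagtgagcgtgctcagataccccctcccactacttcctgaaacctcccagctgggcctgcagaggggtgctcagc

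Gpr31b, chr17:13052281-13052530, minus strand, capitals mark the NF-kappa B consensus and then GAGGAAGT: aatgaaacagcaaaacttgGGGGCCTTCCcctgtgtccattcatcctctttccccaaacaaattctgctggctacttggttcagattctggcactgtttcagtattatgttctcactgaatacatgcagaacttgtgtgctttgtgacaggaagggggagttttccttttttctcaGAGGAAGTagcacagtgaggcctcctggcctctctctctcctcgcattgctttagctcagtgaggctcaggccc

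Gpr18, chr14:121915889-121916138, minus strand, capitals mark the interferon-stimulated response element: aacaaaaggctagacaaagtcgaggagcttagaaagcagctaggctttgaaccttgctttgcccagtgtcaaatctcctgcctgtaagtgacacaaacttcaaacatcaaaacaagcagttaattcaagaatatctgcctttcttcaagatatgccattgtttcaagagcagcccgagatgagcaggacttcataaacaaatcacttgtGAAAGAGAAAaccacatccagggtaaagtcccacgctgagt

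At 4 h after LPS, 9 of the 10 receptors had a higher mean on the log2(RPKM + 1) scale than naïve retinas, with Fpr1 lower, and the median difference was 2.47 beside -0.11 over all 13164 genes tested. It was 4.54 with a pseudocount of 0.1 and 0.68 with one of 10. At 18 h 9 were higher, with a median of 2.47 beside -0.08, and the remaining gene, Gpr132, was listed at 0 in every retina. At 2 weeks the median was 0.55 beside 0.07. Without Gpr132 the median of the other 9 was 2.76 at 18 h and 0.58 at 2 weeks. The whole-table limma fit called 7 of the 10 higher at 4 h, where 3.68% of all genes were called higher and 4.39% lower, and 6 of the 10 higher at 18 h, where the shares were 2.84% and 1.85%. None of the 10 was called lower, and none at 2 weeks, where 0.0076% of all genes were called. With every retina scaled to an equal sum of RPKM the counts of the 10 were 7 and 4. Nothing is read from these counts, because the genes were selected on the same retinas.

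For Gpr18, Gpr31b, Gpr84, Gpr132, Hcar2, Fpr2 and Ccrl2, each of the 6 retinas at 4 h lay above each of the 10 naïve retinas, which held for 1.65% of all genes tested. Hcar2, Fpr1 and Fpr2 had no overlap with naïve retinas at 18 h, against 2.05% of all genes. Between the time points, all 4 h values lay above all 18 h values for Gpr132 and Ccrl2 and below them for Fpr1. Over all genes tested, the 4 h group lay wholly above the 18 h group for 2.79% and wholly below it for 4.84%. Nothing is read from these counts either.

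**Figure D1:**
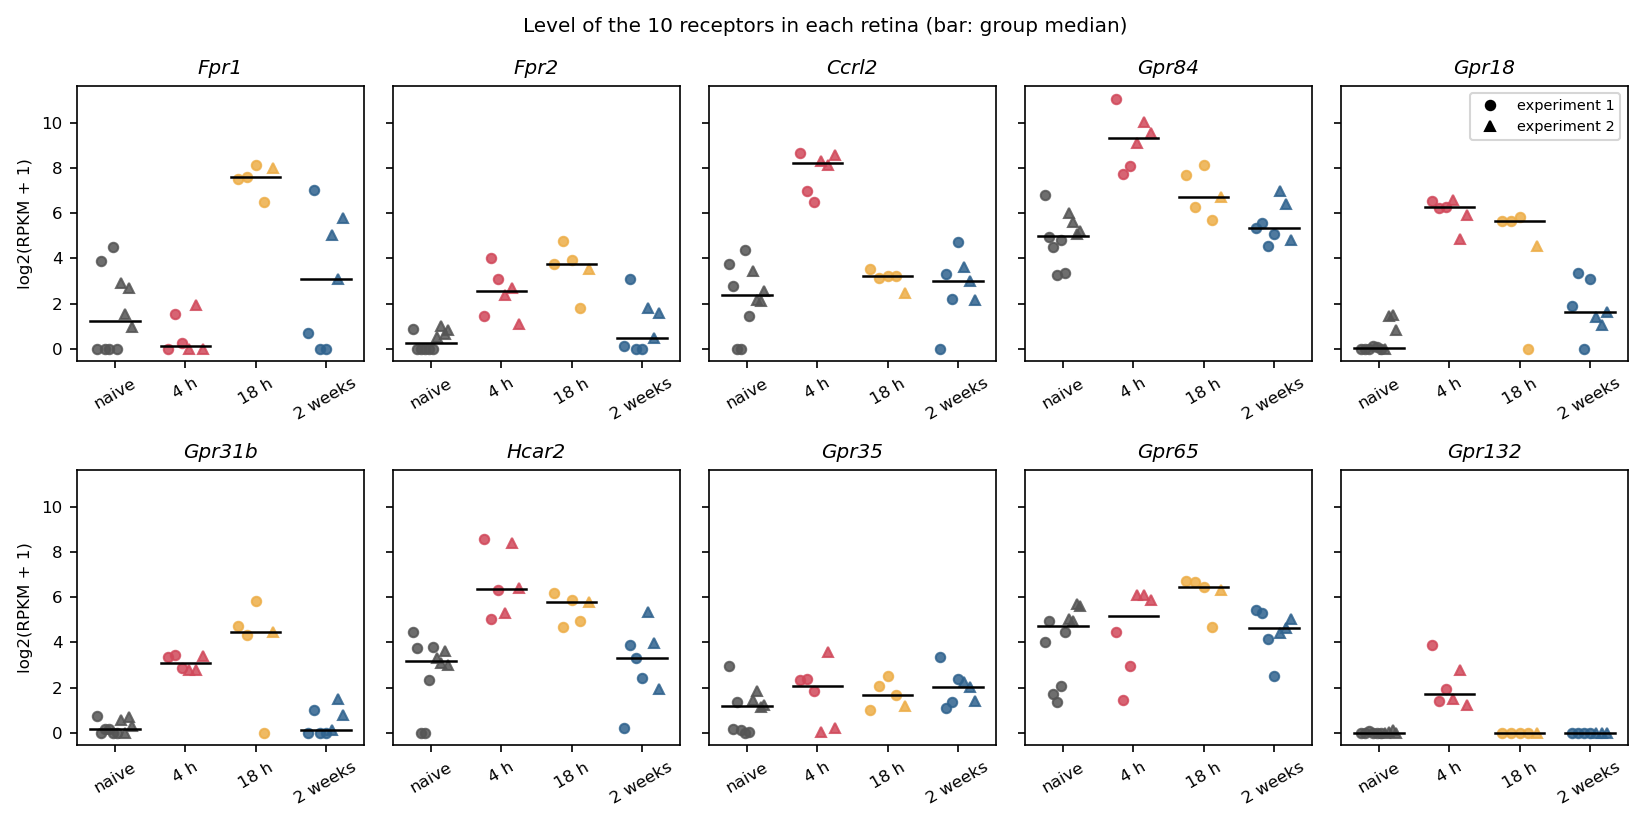
Levels of the 10 receptors in each of the 28 retinas, as log2(RPKM + 1) on the vertical axis, by group on the horizontal axis. Circles are retinas of experiment 1, triangles those of experiment 2, and bars are group medians; Fpr1 is high at 18 h in all 5 retinas, and Gpr132 is above 1 RPKM only at 4 h.

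Fpr1 and Fpr2 encode the receptors through which phagocytes follow formylated peptides released by bacteria and damaged mitochondria, and Fpr2 also binds annexin A1 and serum amyloid A. Fpr1 ranged from 0 to 21.9 RPKM in naïve retinas with a median of 1.39, and was listed at 0 in 4 of the 10. At 4 h it ranged from 0 to 2.87 with a median of 0.101. The 5 retinas at 18 h stood at 186, 192, 279, 90.5 and 259 RPKM, all above every naïve and every 4 h value. Its difference from naïve retinas was 5.92 ± 0.94 (standard error) at 18 h and -1.02 ± 0.88 at 4 h, both on the log2(RPKM + 1) scale used for all differences. By mean level Fpr1 was the 310th of the 40021 lines at 18 h and the 5711th in naïve retinas. At 2 weeks its values spread from 0 to 131 RPKM with a median of 7.58, and 3 of 7 retinas, at 131, 54.7 and 31.8 RPKM, were still above every naïve retina. These 3 retinas came from both experiments.

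Fpr2 ranged from 0 to 1.02 RPKM in naïve retinas, with a median of 0.217 and 5 of 10 listed at 0. The 4 h retinas ranged from 1.13 to 15.3 with a median of 4.89, a difference of 2.07 ± 0.47. Retinas at 18 h stood at 12.7, 26.6, 14.4, 2.51 and 10.7 RPKM, a difference of 3.19 ± 0.50. Every retina at 4 h and at 18 h was above every naïve one, while 4 h and 18 h values overlapped. At 2 weeks Fpr2 ranged from 0 to 7.61 with a median of 0.395, and the retina at 7.61 was also the one with the highest Fpr1. None of the other formyl peptide receptor genes, Fpr3, Fpr-rs3, Fpr-rs4, Fpr-rs6 and Fpr-rs7, exceeded 0.218 RPKM in any retina.

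Both Fpr1 and Fpr2 are also expressed by neutrophils and monocytes. The 11 neutrophil markers summed to at most 0.547 RPKM in any retina of the other groups, and at 18 h to 1.08, 12.7, 19.9, 0 and 0.885 RPKM in the order given above. Retina 4, with the sum of 0 and the lowest Fpr1 and Fpr2 of the 18 h group, is also the one with 6969 genes at 1 RPKM or more. The 18 h sum was led by S100a8 (mean 2.59, highest 9.24 RPKM) and S100a9 (mean 1.74, highest 5.15), both listed at 0 in all naïve retinas. Camp, Mmp8, Stfa2l1, Retnlg and Ly6g had values above 0 in 1 to 2 of the 5 retinas, and Ngp, Ltf and Mpo were listed at 0 in all 5. Cxcr2 was listed at 0 in 1 of the 5, with a mean of 0.212 and a highest value of 0.815 RPKM. Its naïve mean was 0.0405 RPKM. Summed over 8 genes, monocyte markers ranged from 152 to 322 RPKM at 18 h and from 10.5 to 176 in the other groups. In this sum Ms4a4c alone had a mean of 25.8 RPKM in naïve retinas and 227 at 18 h. The mean of F13a1 was 10.4 RPKM in naïve retinas and 1.41 at 18 h. Plac8 went from 0.829 to 8.79 RPKM and Fn1 from 0.120 to 4.46. At 18 h Ly6c2 had a mean of 1.26 RPKM, and the means of Ccr2, Chil3 and Vcan did not exceed 0.351. The sum of 8 lymphocyte markers ranged from 8.63 to 86.4 RPKM at 18 h and did not exceed 7.79 elsewhere. Of these, Nkg7, a granule protein of cytotoxic lymphocytes, was listed at 0 in all naïve retinas and rose to between 5.77 and 86.4 RPKM at 18 h (adjusted p = 2.0e-10 from limma). Trbc2, a T-cell receptor constant gene, had a highest value of 5.24 RPKM at 18 h, and the B-cell genes Cd79a and Ms4a1 stayed under 0.1 RPKM there. The part of neutrophils, monocytes and lymphocytes in the 18 h values of the 10 receptors was not tested.

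Ccrl2, an atypical receptor that holds chemerin at the cell surface, ranged from 0 to 19.4 RPKM in naïve retinas with a median of 4.20. At 4 h it ranged from 88.9 to 409.5 with a median of 299, and the lowest 4 h retina was above the highest naïve one. This difference was 5.61 ± 0.60. The 18 h retinas stood at 10.7, 7.75, 8.44, 8.27 and 4.56 RPKM, within the naïve range, with a difference of 0.86 ± 0.64 that became -0.09 with experiment 2 alone, which holds 1 retina at 18 h. Values at 2 weeks ranged from 0 to 25.8 with a median of 6.94. Cmklr1, the signalling receptor for chemerin, had a mean of 3.81 ± 1.76 RPKM (SD, n = 10) in naïve retinas and 2.08 ± 1.60 at 4 h (n = 6), which did not pass (adjusted p = 0.33 from limma). Rarres2, the chemerin gene, had a median of 1.86 RPKM in naïve retinas and 1.62 at 4 h and did not pass at any time.

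**Figure D2:**
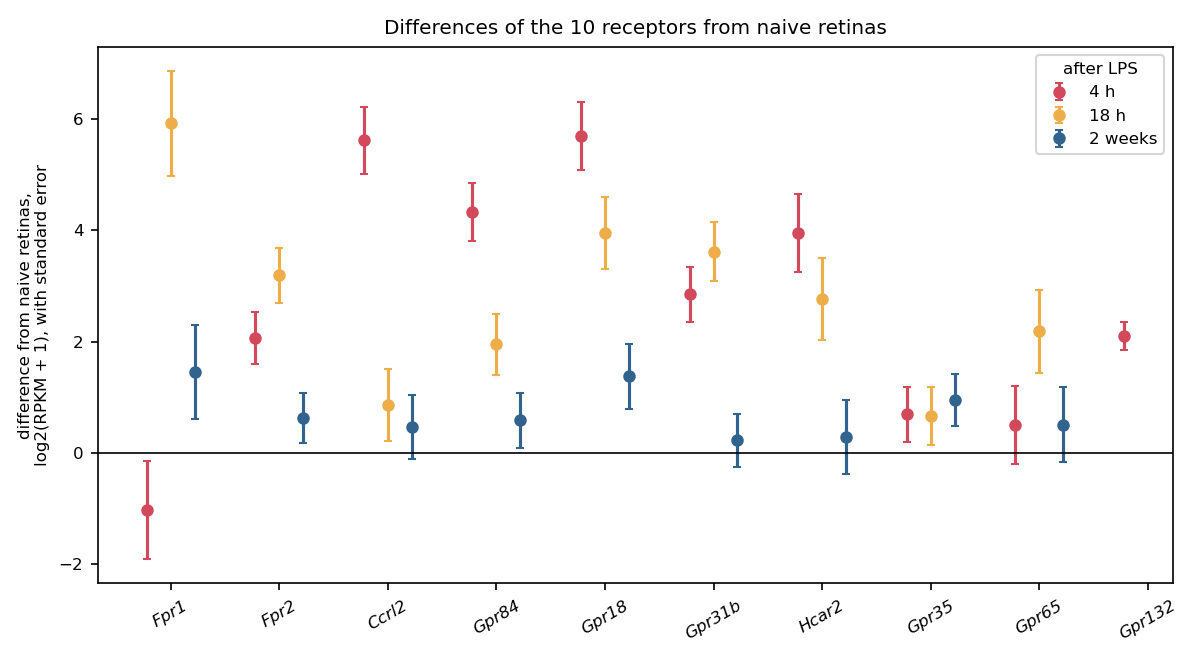
Difference of each receptor from naïve retinas for each time after LPS on the log2(RPKM + 1) scale (vertical axis), with standard errors from the fit of the 4 groups; genes are on the horizontal axis, and Gpr132 is drawn at 4 h only because later retinas were listed at 0 or far under 1 read. Ccrl2 has a difference of 5.61 at 4 h and 0.86 at 18 h, and Fpr1 has -1.02 and 5.92.

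Gpr84, a receptor for medium-chain fatty acids found on myeloid cells, had the highest naïve level of the 10, from 8.54 to 110.2 RPKM with a median of 31.3. At 4 h it ranged from 215 to 2189 RPKM with a median of 655, a difference of 4.32 ± 0.52, and by mean level it was the 54th of the 40021 lines. The 18 h retinas stood at 206, 76.4, 283, 51.1 and 105 RPKM, of which 2 of 5 were above every naïve retina, with a difference of 1.95 ± 0.55. At 2 weeks it ranged from 22.8 to 127 with a median of 39.3, overlapping the naïve retinas.

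Hcar2 encodes a Gi-coupled receptor for niacin and the ketone body beta-hydroxybutyrate. Naïve levels ranged from 0 to 21.0 RPKM with a median of 8.18, and the 2 naïve retinas listed at 0 were the 2 with fewer than 8000 genes. At 4 h it ranged from 32.0 to 387 with a median of 81.6, a difference of 3.94 ± 0.70. Its 18 h values were 71.9, 24.9, 58.5, 29.7 and 53.7 RPKM, a difference of 2.76 ± 0.74, and at both time points no retina overlapped the naïve range. At 2 weeks Hcar2 ranged from 0.157 to 39.3 with a median of 8.90. Hcar1, the neighbouring lactate receptor, was at most 0.068 RPKM in any retina.

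Gpr35, for which kynurenic acid is a proposed ligand, overlapped between all groups. Its levels ranged from 0 to 6.65 RPKM in naïve retinas (median 1.26), 0.0125 to 10.8 at 4 h (median 3.30) and 1.10 to 9.33 at 2 weeks (median 3.09). At 18 h it stood at 1.00, 3.13, 4.68, 2.22 and 1.28 RPKM. The differences were 0.69 ± 0.49 (4 h), 0.66 ± 0.52 (18 h) and 0.95 ± 0.47 (2 weeks). With experiment 2 alone the difference was -0.16 at 4 h and -0.22 at 18 h.

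Gpr18 and Gpr31b are receptors with proposed lipid ligands, and the ligand of Gpr18 is disputed. Gpr18 was at most 1.84 RPKM in naïve retinas, with a median of 0.0323 and 5 of 10 listed at 0. At 4 h it ranged from 28.3 to 94.5 RPKM with a median of 76.0, a difference of 5.69 ± 0.61. The 18 h retinas stood at 50.4, 50.3, 55.4, 0 and 22.5 RPKM, so that 4 of 5 were above every naïve retina and retina 4 was listed at 0. Its difference at 18 h was 3.95 ± 0.65. At 2 weeks 4 of 7 retinas were above every naïve one, with a range from 0 to 9.27 and a median of 2.06, all of them below every 4 h value.

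Gpr31b was at most 0.658 RPKM in naïve retinas, with 4 of 10 listed at 0. Its 4 h values lay close together, from 5.85 to 9.93 RPKM with a median of 7.77, a difference of 2.85 ± 0.50. At 18 h it stood at 25.4, 19.4, 56.8, 0 and 20.7 RPKM, a difference of 3.61 ± 0.53, so that 4 of 5 retinas were above every 4 h retina and retina 4 was again listed at 0. That retina is one of those with fewer than 8000 genes. At 2 weeks Gpr31b ranged from 0 to 1.81 with a median of 0.0866.

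Gpr65 and Gpr132 belong to a proton-sensing receptor family. Gpr65 was the second highest of the 10 in naïve retinas, from 1.57 to 51.6 RPKM with a median of 25.7. It ranged from 1.76 to 68.5 at 4 h (median 39.1) and from 4.72 to 42.0 at 2 weeks (median 24.1). At 18 h it stood at 105, 100.3, 87.6, 24.6 and 80.3 RPKM, with 4 of 5 retinas above every naïve one and a difference of 2.18 ± 0.74. The differences at 4 h and 2 weeks were 0.50 ± 0.70 and 0.51 ± 0.67, and the latter was -0.62 with experiment 2 alone. On the log2 scale the means of experiment 1 were 3.10 (naïve), 2.95 (4 h) and 6.13 (18 h). Those of experiment 2 were 5.34, 6.03 and 6.35, the last from 1 retina. The naïve and 18 h groups hold unequal shares of the experiments, so the difference of 2.18 depends on that mix.

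Gpr132, which also responds to oxidised and lysophosphatidylcholine lipids, was above 1 RPKM in the 4 h group alone. Naïve retinas did not exceed 0.0698 RPKM, with 7 of 10 listed at 0. At 4 h it ranged from 1.32 to 13.9 RPKM with a median of 2.33, a difference of 2.10 ± 0.25. All 5 retinas at 18 h were listed at 0, and at 2 weeks 6 of 7 were listed at 0 and the remaining one stood at 2.85e-28 RPKM, far under 1 read.

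In naïve retinas the order of the mean levels was Gpr84, Gpr65, Hcar2, Ccrl2, Fpr1, Gpr35, Gpr18, Fpr2, Gpr31b and Gpr132. The ranges of all neighbours in this order overlapped. At 4 h the order by mean was Gpr84, Ccrl2, Hcar2, Gpr18, Gpr65, Gpr31b, Fpr2, Gpr132, Gpr35 and Fpr1, and at 18 h it was Fpr1, Gpr84, Gpr65, Hcar2, Gpr18, Gpr31b, Fpr2, Ccrl2, Gpr35 and Gpr132.

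The experiments and the eyes played no part in the selection of the 10 genes, so differences along them were tested with limma over all genes. In naïve retinas all 10 had a higher mean on the log2 scale in experiment 2 than in experiment 1. So had 9485 of the 13164 genes tested. Gpr31b and Gpr132 were under 1 RPKM in all 10 naïve retinas, Fpr2 in 9 and Gpr18 in 8. These genes passed the filter through the injected retinas, so nothing is read from their naïve differences or missing calls. The differences of the 10 were 0.03 to 2.24 with a median of 0.63, beside a median of 0.40 over all genes. Without the retinas under 8000 genes 7 of the 10 were higher. In mean RPKM Fpr1 (5.95 in experiment 1, 3.69 in experiment 2) and Ccrl2 (6.55 and 5.37) were lower in experiment 2. None of the 10 passed, with 1.79% of all genes called, and 1 had an unadjusted p under 0.05. That gene was Gpr65, at 12.3 ± 11.9 RPKM (SD, n = 6) in experiment 1 and 40.5 ± 10.9 in experiment 2 (n = 4), a difference of 2.24 ± 0.68 with an adjusted p of 0.075 from limma. It was called without the first naïve retina (adjusted p = 0.030 from limma) or without the second (0.029), and its adjusted p was 0.21 without the retinas under 8000 genes. Over all alternatives the adjusted p ranged from 0.029 to 0.77. Naïve retinas of experiment 1 include 2 of the 4 retinas with fewer than 8000 genes.

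The 4 h change could be compared between the experiments with 3 retinas in each. Its difference, experiment 2 minus experiment 1, ranged from -1.56 ± 1.00 for Gpr35 to 0.84 ± 1.10 for Gpr65, and none of the 10 passed or had an unadjusted p under 0.05, with 0.0988% of all genes called. The standard errors ran from 0.52 to 1.75. At 4 h Gpr65 stood at 9.78 ± 9.93 RPKM (SD, n = 3) in experiment 1 and 64.5 ± 6.25 in experiment 2 (n = 3). This difference in the 4 h level, unlike that in the change from naïve retinas, was not tested.

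**Figure D3:**
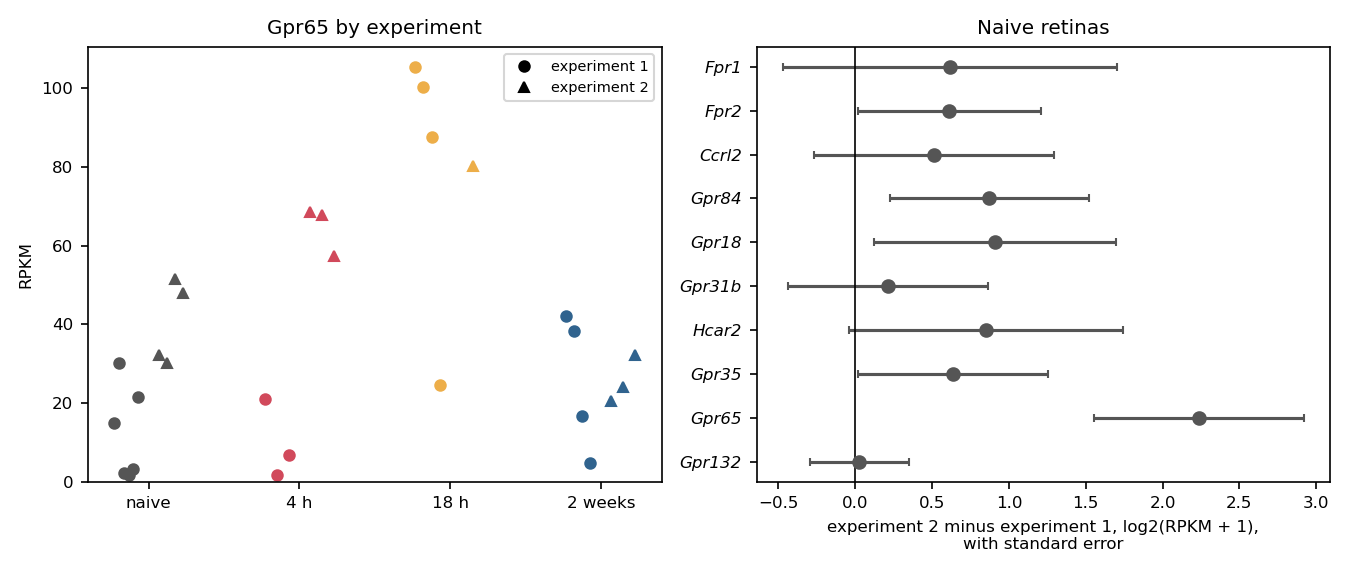
Left, Gpr65 in RPKM (vertical axis) in each retina by group, with experiment 1 as circles and experiment 2 as triangles; right, the difference between the experiments in naïve retinas for each receptor on the log2(RPKM + 1) scale (horizontal axis), with standard errors. The Gpr65 difference of 2.24 is the largest of the 10.

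Between right and left eyes, differences ranged from -0.86 to 0.09 on the log2 scale, 8 of the 10 receptors were lower in right eyes, and none passed (0% of all genes called). Over all genes the median was -0.15, and 4366 of the 13164 genes tested were higher in right eyes. The lowest adjusted p was 0.57 from limma, for Gpr18 (-0.86 ± 0.44) and Gpr31b (-0.72 ± 0.35), and Gpr31b alone had an unadjusted p under 0.05. Retina 4 of the 18 h group, which lists both at 0, was a right eye. So were naïve retina 4 and 2-week retina 1, which also had fewer than 8000 genes. Without the retinas under 8000 genes the median of the 10 receptors went from -0.47 to -0.21, and 0 had an unadjusted p under 0.05.

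Likeness of pattern was described by Pearson's r of log2(RPKM + 1) over the 28 retinas, which share the 4 groups and their libraries. The nearest genes were Marcksl1 (0.96) and Ehd1 (0.94) for Gpr84, N4bp1 (0.95) and Cd83 (0.93) for Ccrl2, Stx11 (0.94) and Slc7a11 (0.93) for Gpr132, and Plaur (0.90) and Slfn2 (0.88) for Hcar2. Cd83, which encodes a surface glycoprotein of activated antigen-presenting cells, had a mean RPKM of 46.8 in naïve, 2312 in 4 h, 39.6 in 18 h and 71.1 in 2-week retinas. For Gpr18 the nearest were Cd69 (0.92) and Batf (0.89), and for Gpr31b Lcn2 (0.92) and Prdx5 (0.89). Lcn2, the siderophore-binding protein lipocalin 2, had means of 0.253, 9.61, 96.7 and 0.335 RPKM in the same order of groups. Aoah (0.83) and Bst2 (0.82) came nearest to Fpr1, and Cd72 (0.88) and Itgal (0.87) to Fpr2. Gpr65 was closest to Uqcrc2 (0.85) and Gm26954 (0.80), and Gpr35 had the lowest values, with Dph2 (0.74) and Ctu1 (0.71).

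Among the 45 pairs of the 10 receptors, r ranged from -0.36 for Gpr132 with Fpr1 to 0.87 for Gpr18 with Gpr31b, with a median of 0.41. After the group means were removed, the median was 0.21. The pair Gpr18 and Gpr31b then had an r of 0.75, which was 0.18 without retina 4 of the 18 h group. Gpr84 and Hcar2 had 0.85 over all retinas and 0.65 within groups.

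The 10 receptors were set beside 93 other G-protein-coupled receptors of myeloid cells, of which 33 passed the filter on low values. At 4 h 6 of these 33 were called higher and 10 lower, beside 3.68% and 4.39% of all genes. Their median difference was -0.70 beside -0.11 over all genes. The list was chosen with earlier results known and leaves out the 10 receptors, which were selected on their values in these groups. Nothing is therefore read from its counts or its median. Of the 6 chemokine receptors tested 2 were called higher and 1 lower, and of the 9 lipid receptors 2 higher and 3 lower. The 4 complement and chemerin receptors had 2 called higher and 1 lower. Of the 5 nucleoside and nucleotide receptors 0 were called higher and 2 lower, although the median difference of these 5 was 0.74. At 18 h 4 of the 33 were called higher and 3 lower, beside 2.84% and 1.85% of all genes. With every retina scaled to an equal sum of RPKM these counts of the 33 were 3 and 5. That rescaling shifted the median of all genes from -0.11 to -0.28 at 4 h and from -0.08 to -0.26 at 18 h. At 2 weeks 0 of the 33 were called by limma, and 0 had an unadjusted p under 0.05. On untransformed RPKM the counts were 10, 4 and 0.

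Ccr7, the receptor that guides dendritic cells to lymph nodes, was listed at 0 in all 10 naïve retinas and ranged from 15.9 to 180 RPKM at 4 h (adjusted p = 2.5e-10 from limma). It ranged from 0 to 14.7 at 18 h, where its call (adjusted p = 0.011) was lost without the first or the third 18 h retina, with adjusted p up to 0.083. Ptger4, a prostaglandin E2 receptor, had a mean of 0.167 ± 0.167 RPKM (SD, n = 10) when naïve and rose by 4 h to 8.72 ± 7.96 (n = 6), a difference of 2.76 ± 0.33 whose call was lost with a pseudocount of 10. Without 4 h retina 1, at 24.4 RPKM, the 4 h mean was 5.59. At 18 h it stood at 1.84 ± 1.16 (n = 5, adjusted p = 0.038 from limma), a call that was lost in 8 of 10 alternatives. Ptafr, the receptor for platelet-activating factor, rose from 7.04 ± 5.01 to 48.4 ± 23.4 RPKM at 4 h, and C5ar1, the complement C5a receptor, from 54.3 ± 36.0 to 380.5 ± 299, although experiment 1 on its own did not give the latter call (adjusted p = 0.17 from limma). C3ar1, which binds the complement fragment C3a, stood at 72.7 ± 12.7 RPKM in naïve retinas and 316 ± 145 at 18 h. That call was lost with experiment 2 alone, which holds 1 retina at 18 h. C3ar1 was also called higher at 4 h, at 171 ± 84.6 RPKM (adjusted p = 0.017 from limma). Adgre1, the F4/80 antigen of macrophages, rose at 18 h from 83.7 ± 38.9 to 332 ± 184 (lost with experiment 1 alone, adjusted p = 0.083 from limma).

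Among the receptors called lower, Gpr34, a lysophosphatidylserine receptor, had a naïve mean of 1727 ± 367 RPKM (SD, n = 10) and fell by 4 h to 255 ± 278 (n = 6) and by 18 h to 177 ± 161 (n = 5). Without 4 h retina 4, at 723 RPKM, the 4 h mean of Gpr34 was 162. P2ry12, the ADP receptor of ramified microglia, fell from 1794 ± 655 to 487 ± 428 and 205 ± 131 RPKM. Both 18 h calls were lost with experiment 2 alone, which holds 1 retina at 18 h. P2ry13, another ADP receptor, fell from 239 ± 120 to 56.2 ± 54.0 RPKM at 4 h (difference -2.70 ± 0.60), and Cysltr1, a cysteinyl leukotriene receptor, from 36.1 ± 14.4 to 4.61 ± 2.15 (difference -2.69 ± 0.34). The call of P2ry13 was lost on untransformed RPKM. Adgrg1, an adhesion receptor of microglia, was called lower at 18 h, at 12.2 ± 17.8 RPKM in naïve retinas against 1.06 ± 0.91 (adjusted p = 0.012 from limma), a call lost in 4 of 11 alternatives. Naïve retina 1 stood at 62.0 RPKM and the other 9 between 2.05 and 13.7, so that without it the naïve mean was 6.66 and the adjusted p from limma 0.013.

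**Figure D4:**
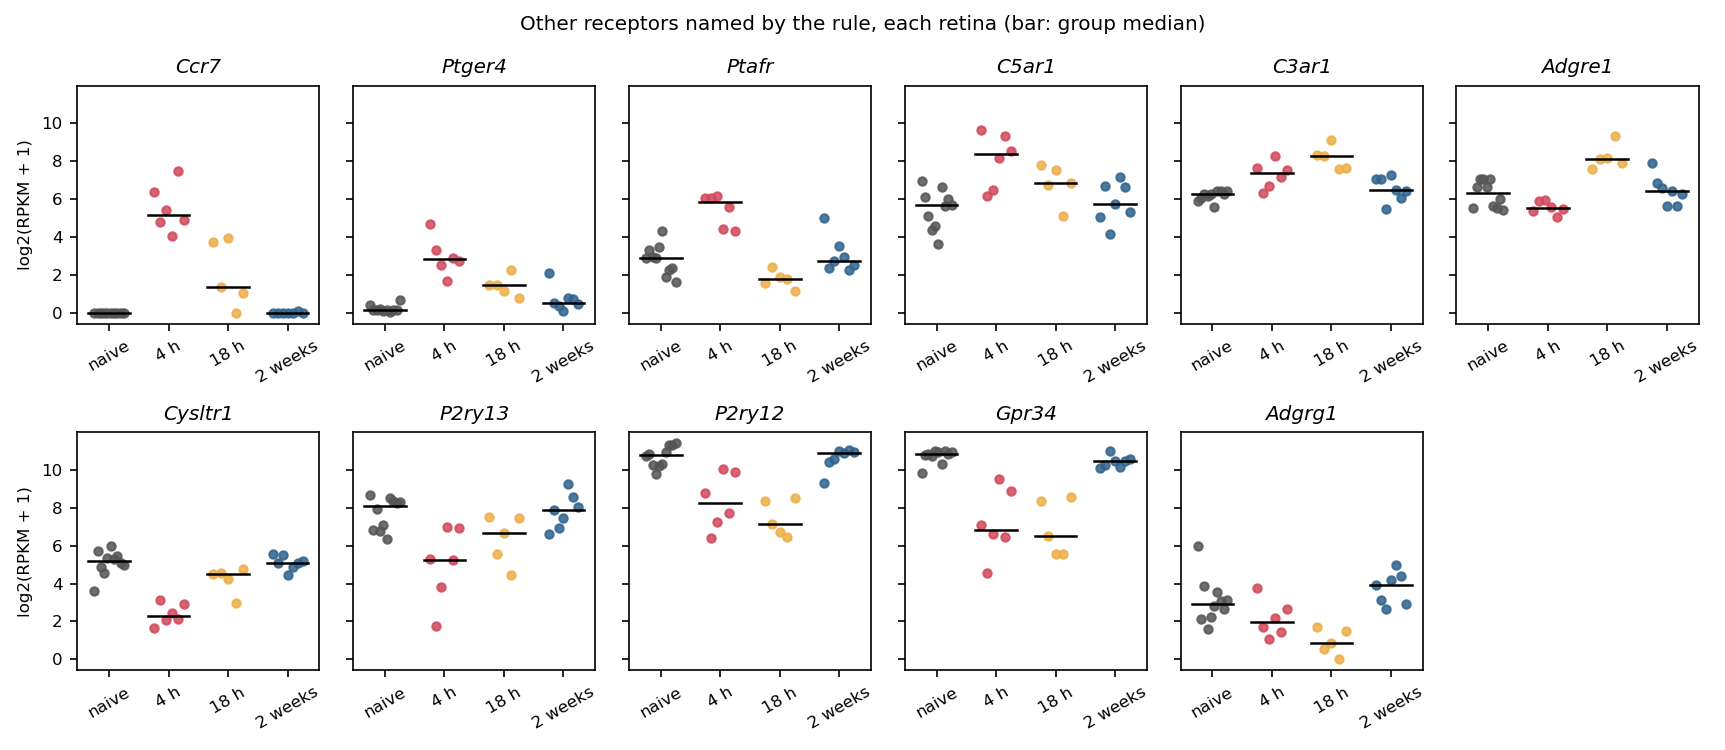
The 11 other receptors named here in each of the 28 retinas, as log2(RPKM + 1) on the vertical axis, by group on the horizontal axis, with bars at group medians. Ccr7 is at 0 in all 10 naïve retinas and above 15 RPKM in all 6 at 4 h. Gpr34 and P2ry12 have lower medians at 4 h and 18 h than in naïve retinas. P2ry12 overlaps between 4 h (highest 1076 RPKM) and naïve retinas (lowest 866 RPKM).

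Of 66 genes that supply ligands or carry the signal of such receptors, 48 passed the filter. At 4 h 5 were called higher and 5 lower, or 4 and 8 after the rescaling to equal summed RPKM, and at 18 h 1 higher and 1 lower, or 1 and 3. Over all genes the shares were 3.68% higher and 4.39% lower at 4 h, and 2.84% and 1.85% at 18 h. These genes too were chosen with earlier results known, so nothing is read from their counts. Among 13 ligand sources tested, Saa3 was called at each of the 3 time points, and at 2 weeks it was the 1 gene called of all 13164. Saa3 encodes a serum amyloid A protein of the family recognised by Fpr2. Naïve retinas held at most 0.649 RPKM, those of the 4 h group 0.209 to 155 (difference 3.20 ± 0.74), the 18 h group 1198 to 12044 (11.67 ± 0.78) and the 2-week group 18.2 to 155 (5.60 ± 0.70). The 4 h call of Saa3 was lost with a pseudocount of 10, with experiment 2 alone and on untransformed RPKM, and the 2-week call on untransformed RPKM. Anxa1, the gene of annexin A1, had a median of 1.83 RPKM in naïve retinas and 16.5 at 4 h and did not pass (adjusted p = 0.16 from limma).

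Of 35 signalling genes tested, 4 were called higher and 5 lower at 4 h, beside 3.68% and 4.39% of all genes. Pde4b, a phosphodiesterase that degrades cyclic AMP, had a naïve mean of 1.96 ± 1.10 RPKM (SD, n = 10), rose by 4 h to 45.6 ± 26.5 (n = 6) and stood at 1.95 ± 1.74 by 18 h (n = 5). Rgs1, which shortens G-protein signals, rose by 2.88 ± 0.51 on the log2 scale, not called in experiment 1 on its own (adjusted p = 0.17 from limma). Pik3r5, the regulatory subunit of the phosphoinositide 3-kinase that receptors of this class activate, rose by 1.89 ± 0.42, lost with a pseudocount of 10. Rgs2, which acts on Gq, fell from 113 ± 52.1 to 15.6 ± 15.5 RPKM, and Adcy7, an adenylyl cyclase, from 8.67 ± 3.05 to 2.06 ± 0.63, lost with a pseudocount of 10. Gna15, a G-protein alpha subunit, was called lower at 4 h (difference -2.52 ± 0.67), a call lost in 4 of 11 alternatives and without the second or the third 4 h retina (adjusted p up to 0.063 from limma). At 18 h Rgs10 was lower, at 377 ± 61.7 RPKM in naïve retinas and 131 ± 40.3, lost with experiment 2 alone (adjusted p = 0.34).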

How the data were processed

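Live tdTomato-high cells of single retinas were sorted, and cDNA was made with SMART-Seq v4 and sequenced as unstranded single-end libraries. The authors trimmed the reads, aligned them to mm10 with STAR 2.5.3a, quantified Ensembl transcripts with the expectation-maximisation step of Partek, so that reads shared by genes are split by estimate, and deposited 1 RPKM value per gene and retina. The deposited tables of the authors' own comparisons hold p-values and fold changes and were not used.

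The 10 receptors and all gene lists were chosen with earlier results of these data known. Genes that reached 1 RPKM in 5 or more of the 28 retinas (13164 of 40021) were tested on log2(RPKM + 1) with limma 3.58.1 (R 4.3.3) in 1 fit of the 4 groups, with the prior variance following mean expression and p-values adjusted by Benjamini-Hochberg. Genes were called at an adjusted p up to 0.05 with a fold change of 2 or more; differences between experiments and eyes needed the adjusted p only. All 10 receptors passed the filter. Fold changes on this scale understate those of low genes. The study used ANOVA on the RPKM with the same thresholds, which was an alternative here (named untransformed RPKM in the results), beside pseudocounts of 0.1 and 10, other filters, the experiment as covariate, a replicate block, each experiment alone (where the filter needed 3 retinas), rescaling to equal summed RPKM and leaving out each retina. Without the 4 retinas under 8000 genes was added after seeing the data.

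Named genes were the 10 receptors, the 4 highest and 4 lowest called of the other receptors at 4 h and 18 h and any at 2 weeks, the 3 highest and 3 lowest called ligand sources and signalling genes, a few fixed ligands and family members, and the 2 genes nearest to each receptor. The choice of Ubac2 and the markers beside the 18 h values followed a look at their values. The fit was tested on simulated data before use. It called 16.8% of simulated 4 h changes of 1 on the log2 scale and 95.2% of those of 3. For differences of these sizes between experiments in the 4 h change it called 0.4% and 30.8%. A missing call between experiments therefore does not show that a receptor changed alike in both. Figures were drawn with Python 3.11.15. Some items withheld for evaluation are not reported here.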

Additional observations from a re-analysis of the deposited data

Results flagged for a closer look

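Among 40 sets of values (10 receptors in 4 groups), 4 held a retina set far apart from its neighbour. Its gap took a large share of the group's range on the log2(RPKM + 1) scale. Chance marks about 1 in 20 such groups if they are independent, but 3 of the 4 sets were flagged for 1 retina. Gpr18 in the fifth 4 h retina was the lowest at 28.3 RPKM, with the next at 60.7 and the highest at 94.5. The other 3 were all in the fourth 18 h retina, where Gpr18 was listed at 0 RPKM (next lowest 22.5), Gpr31b at 0 (next lowest 19.4) and Gpr65 stood at 24.6 (next lowest 80.3). That retina had 6969 genes with an RPKM of at least 1, beside 9499 to 10220 in the other 18 h retinas; the part of this in its receptor values was not tested.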

How the results depend on the processing

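Over 11 alternatives other than leaving out single retinas, the number of other receptors called was 10 to 17 at 4 h (16 as reported), 1 to 9 at 18 h (7) and 0 at 2 weeks (0), and that of ligand sources and signalling genes 6 to 15 (10), 2 to 4 (2) and 0 to 1 (1). At 4 h, ANOVA on untransformed RPKM called 10 other receptors, and experiment 1 alone 6 ligand sources and signalling genes. At 18 h the other receptors called were 4 with a pseudocount of 10, 3 with experiment 1 alone, 1 with experiment 2 alone and 4 by ANOVA, and the ligand sources and signalling genes were 4 each with the experiment as covariate, after rescaling, by ANOVA and without the 4 retinas under 8000 genes; ANOVA called 0 of them at 2 weeks. The causes were not tested, but a fit of 1 experiment holds fewer retinas. Leaving out 1 retina gave 14 to 17, 5 to 8 and 0 to 0 other receptors and 8 to 13, 2 to 3 and 1 to 1 of the second list.

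The median difference of the 10 receptors at 4 h was 4.54 with a pseudocount of 0.1 and 0.68 with one of 10, beside 2.47, and stayed between 1.53 and 3.13 at 18 h and between 0.20 and 0.77 at 2 weeks. No receptor was called for a difference between experiments at 4 h or between eyes under any alternative, and in naïve retinas leaving out 1 retina gave 0 to 1, the 1 being Gpr65 without naïve retina 1 or 2. Over 1044 refits of these 30 tests, 41 changed sign.

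Nothing in the labels says that a replicate number marks a shared animal or day. Over 34 pairs of same-numbered retinas the correlation of deviations ran from -0.33 to 0.70, 15 pairs were over 0.1, and 7 of 25 retinas correlated best with their own number. With the replicate block, 12, 7 and 0 other receptors and 10, 3 and 1 ligand sources and signalling genes were called in order of time, and the medians of the 10 receptors were 2.63, 3.13 and 0.77. In naïve retinas Gpr132 did not exceed 0.0698 RPKM, so depth limits what its naïve values can show.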
